A study of Saccharomyces cerevisiae with 36 samples.

Results

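The nucleolar ribosome assembly genes of the yeast Saccharomyces cerevisiae were taken by name, as every open reading frame whose standard gene name is UTP, NOP, RRP, NOC, NOG, NSA, RPF, SSF or ENP followed by a number. The rule found 66 genes among the 6295 rows of the table, of which 5830 matched an annotated gene. It used no measured value, and it left out assembly factors that carry other names, such as PWP2 and DIP2. Transcript levels were compared on 36 dual-channel DNA arrays, each giving 1 ratio per open reading frame between a pair of RNA samples. In 6 strains, cells after 30 min in 5% ethanol were set against unstressed cells of the same strain, on 3 arrays each: msn2D and hap1D, which by their names lack MSN2 and HAP1 and by their genotype labels are YPS163 MATa, then YPS163 MATa (mating type a), YPS163, M22 and DBY8268. DBY8268 is a laboratory strain of S288c background and serves as the reference. M22 and YPS163 do not come from the laboratory. How many clones stand for each deletion is not given in the sources used here. A further 3 groups of 3 arrays compared strains in log phase without ethanol: hap1D over YPS163 MATa, M22 over DBY8268 and YPS163 over DBY8268. The last 9 arrays are single ethanol time points at 15, 45 and 60 min in YPS163, M22 and DBY8268. All cultures were kept in rich YPD medium at 30 °C.

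Eukaryotic ribosomes are put together in the nucleolus around the transcribing rRNA precursor. The UTP complexes A, B and C and the U3 small nucleolar ribonucleoprotein build the 90S precursor, which is cleaved to give the pre-40S particle, while a separate set of GTPases, methyltransferases and scaffold proteins matures the pre-60S particle and the exosome trims rRNA ends and degrades the spacers. In yeast the genes of these factors are known to be transcribed together with growth and to be turned down in many kinds of stress.

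By role, 6 members belong to UtpA, which binds the start of the nascent rRNA precursor, 4 to UtpB, 2 to UtpC and 5 to the small nucleolar ribonucleoproteins that guide rRNA modification and cleavage. A further 18 are other 90S and pre-40S factors, 24 act on the pre-60S particle and 7 are subunits of the RNA exosome, which also works outside the nucleolus. In the annotation, RRP3 lies next to SSF1 and RRP15 next to NOC4. Between 57 and 66 members had a value on each array, and 40 had a value on every array. RRP6, NOC2, UTP23, RRP40, RRP36, NOP58 and NOP8 were each without a value on most arrays of M22, YPS163 and DBY8268 and could not be tested there: all 7 were present on 15 arrays, 1 to 3 of them on 4 arrays and 0 on 17 arrays.

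The table held 4981 to 6093 values per array, and array medians ran from -0.08 to 0.17 on the log2 scale. For the log-phase ratios, which sample is on top was worked out from the values, so these directions are likely rather than certain. The ethanol ratios were read as ethanol over unstressed from titles that set a time in ethanol against the start. This reading was not checked on the values. Name order in a title does not settle it, since log-phase titles name DBY8268 first and the other strain was taken as upper. Of the spots of rows below -4 in log phase, 25.1% had no value on M22 ethanol arrays and 0.217% on DBY8268 ethanol arrays for the M22 comparison (77 rows), and 27.1% on YPS163 and 0.196% on DBY8268 arrays for the YPS163 comparison (85 rows), and the strain was taken as the upper term. HAP1 had a value on 0 of the 3 hap1D ethanol arrays and MSN2 on 0 of the 3 msn2D ethanol arrays, against 2 of 2 for each in YPS163 MATa. In log phase HAP1 lay at -3.47 ± 0.61 (SD, n = 2 arrays) in hap1D over YPS163 MATa. Ethanol array 3 of YPS163 MATa was left out, because its values stand 1 position out of step with the names: its correlation with the mean of the other YPS163 MATa ethanol arrays, across genes, was 0.164 as deposited and 0.747 after a move by 1 position. Results on YPS163 MATa therefore rest on 2 arrays. Values below are log2 ratios, a mean carries the SD of its arrays, a difference carries its standard error, and a call is an adjusted p under 0.05 in limma over all rows tested.

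After 30 min of ethanol, transcripts of these genes were lower in each of the 6 strains, and 0 members rose. In msn2D 61 of 65 tested members fell, in hap1D 66 of 66, in YPS163 MATa 62 of 62, in YPS163 58 of 59, in M22 59 of 59 and in DBY8268 58 of 59. Over all rows tested, the share that fell was 22.4% in msn2D, 27.7% in hap1D, 27.6% in YPS163 MATa, 30% in YPS163, 29.7% in M22 and 31% in DBY8268. The share that rose was 21% in msn2D, 26.7% in hap1D, 24.3% in YPS163 MATa, 30.4% in YPS163, 32.3% in M22 and 28.6% in DBY8268. The median member stood at -1.2 in msn2D, a level 2.29-fold lower than without ethanol, at -1.64 (3.13-fold lower) in hap1D and at -2.10 (4.29-fold lower) in YPS163 MATa. In the strains without a mating-type label it stood at -2.09 in YPS163, -2.13 in M22 and -2.14 in DBY8268, while the median over all rows lay between -0.04 and 0.03 in every group. The arrays read RNA of whole cultures, so that fewer cells carrying a transcript and fewer transcripts per cell cannot be told apart.

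**Figure D1:**
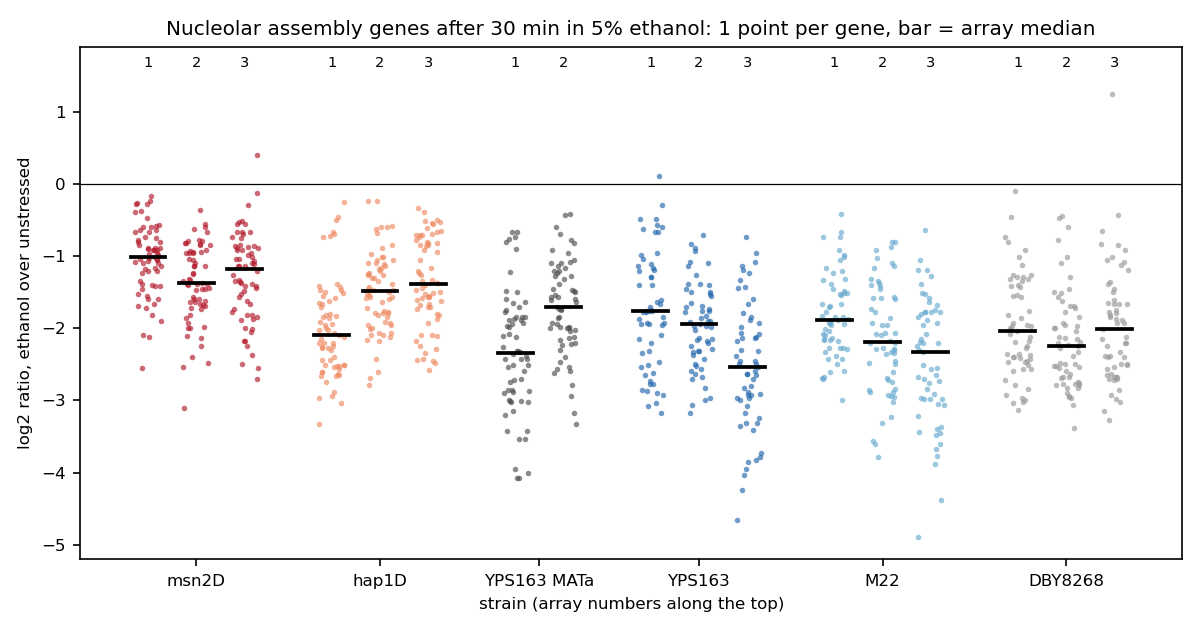
Each point is the log2 ratio (ethanol over unstressed, vertical axis) of 1 gene on 1 array after 30 min in 5% ethanol, with arrays side by side within each strain and a bar at the array's median. The 3 msn2D medians, from -1.38 to -1.01, lie above those of the other strains, and the 2 YPS163 MATa arrays differ from each other, at -2.34 and -1.71.

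The array medians were -1.01, -1.38 and -1.18 in msn2D, -2.09, -1.49 and -1.39 in hap1D, -2.34 and -1.71 in YPS163 MATa, -1.76, -1.94 and -2.54 in YPS163, -1.89, -2.19 and -2.33 in M22, and -2.04, -2.24 and -2.01 in DBY8268. The msn2D medians lay above those of every other strain, although msn2D array 2 and hap1D array 3 were close to each other. The hap1D medians overlapped with those of the 4 strains that follow. The median SD of a member over the arrays of its group was 0.22 in msn2D, 0.33 in hap1D, 0.36 in YPS163 MATa, 0.40 in YPS163, 0.36 in M22 and 0.29 in DBY8268. The helicase gene RRP3, whose product acts in the early cleavages that lead to 18S rRNA, had the largest spread in msn2D, hap1D, YPS163 and DBY8268, at 0.62, 1.03, 1.30 and 1.30.

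Among UtpA and UtpB genes, all 6 and all 4 members fell in DBY8268, with medians of -1.99 and -2.25. UTP10, the largest UtpA subunit, lay at -1.41, -1.99 and -1.77 in msn2D, at -2.02, -1.47 and -1.68 in hap1D, at -1.97 and -1.73 in YPS163 MATa, at -2.34, -1.86 and -1.79 in YPS163, at -2.60, -2.72 and -1.92 in M22, and at -3.13, -2.59 and -2.39 in DBY8268. Every DBY8268 array was below every YPS163 array for this gene, and msn2D and YPS163 MATa arrays overlapped. UTP5 was the lowest UtpA member in DBY8268 at -2.79 ± 0.25 and UTP15 the highest at -1.84 ± 0.19 (n = 3 arrays each). UTP21 and UTP18 bounded UtpB at -2.50 and -1.69.

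UtpC genes moved less than UtpA and UtpB genes by their medians, which were -0.59 in msn2D, -0.47 in hap1D, -0.75 in YPS163, -1.12 in M22 and -1.04 in DBY8268. UTP22, the UtpC scaffold that recruits its partners to the 90S particle, lay at -0.26, -0.77 and -0.74 in msn2D, at -0.46, -0.24 and -0.39 in hap1D, at -0.67 and -0.42 in YPS163 MATa, at -1.29, -0.83 and -0.74 in YPS163, at -1.33, -1.09 and -1.19 in M22, and at -1.54, -1.45 and -1.36 in DBY8268. Its DBY8268 values were all below those of the other 5 strains, and the msn2D, hap1D and YPS163 MATa values overlapped. RRP7, the other member of UtpC, averaged -0.59 ± 0.31 in msn2D, -0.57 ± 0.06 in hap1D, -1.03 ± 0.69 in M22 and -0.64 ± 0.32 in DBY8268 (n = 3 arrays each). In YPS163 it had values of 0.11 and -1.19 on 2 arrays and was not called (adjusted p = 0.109).

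The small nucleolar ribonucleoprotein genes fell in every strain where they could be tested. NOP1, the fibrillarin methyltransferase of box C/D particles, averaged -1.60 ± 0.56 in msn2D, -1.74 ± 0.50 in hap1D, -2.12 ± 0.23 in YPS163, -2.08 ± 0.41 in M22 and -2.51 ± 0.64 in DBY8268 (n = 3 arrays each), and lay at -2.72 and -1.09 in YPS163 MATa. NOP56 and NOP58 are the paired core proteins of the same particles. NOP56 averaged -1.78 ± 0.38 in msn2D, -2.11 ± 0.15 in hap1D, -2.66 ± 0.44 in M22 and -2.60 ± 0.22 in DBY8268 (n = 3 arrays each), with -1.77 and -2.54 on 2 YPS163 arrays. NOP58 lay at -1.46, -2.0 and -1.99 in msn2D, at -2.21, -1.79 and -2.10 in hap1D, and at -2.51 and -2.0 in YPS163 MATa, where hap1D overlapped with both other strains. RRP9, a U3-specific protein, was the highest of these genes in DBY8268, at -1.21 ± 0.34.

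Other 90S and pre-40S factors reached the lowest values together with pre-60S factors. RRP12, a HEAT-repeat protein of subunit export, lay at -1.90, -2.53 and -2.49 in msn2D, at -2.44, -2.06 and -2.43 in hap1D, at -3.53 and -2.56 in YPS163 MATa, at -3.04, -3.06 and -3.41 in YPS163, at -2.70, -3.79 and -3.37 in M22, and at -2.79, -3.38 and -2.54 in DBY8268. RRP5, which is needed for both subunits, averaged -2.26 ± 0.39 in msn2D, -2.35 ± 0.23 in hap1D, -2.60 ± 0.54 (n = 2) in YPS163 MATa, -2.77 ± 0.19 in YPS163, -2.99 ± 0.32 in M22 and -2.90 ± 0.20 in DBY8268. Both genes were therefore among the lowest in msn2D as well as in DBY8268. RRP3 was the exception in this role: it lay at -0.17, -0.83 and 0.40 in msn2D and at -1.29, -0.47 and 1.25 in DBY8268, and was not called in either (adjusted p = 0.769 and 0.768). It fell in the other 4 strains, at -1.65 ± 1.03 in hap1D, -2.38 ± 1.09 in YPS163 MATa, -2.06 ± 1.30 in YPS163 and -1.19 ± 0.58 in M22.

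Of the pre-60S genes, 23 of 24 fell in msn2D, 24 of 24 in hap1D and in YPS163 MATa, and 22 of 22 in YPS163, M22 and DBY8268. NOG1, a GTPase of early pre-60S particles, lay at -1.72, -2.11 and -2.37 in msn2D, at -2.61, -2.16 and -2.44 in hap1D, at -3.01 and -2.62 in YPS163 MATa, at -3.17, -2.64 and -2.99 in YPS163, at -2.59 and -3.07 on 2 arrays in M22, and at -3.04, -2.95 and -2.98 in DBY8268. It was the lowest member in DBY8268, at -2.99 ± 0.05 (SD, n = 3 arrays, adjusted p = 5.04e-12). NOP7, the yeast Pescadillo homologue, averaged -2.78 ± 0.28 in msn2D, -2.77 ± 0.18 in hap1D, -3.60 ± 0.59 in YPS163 MATa, -3.38 ± 0.58 in YPS163, -3.29 ± 0.77 in M22 and -2.45 ± 0.19 in DBY8268, and was the lowest member in msn2D, hap1D and YPS163 MATa. SSF1 was the lowest in YPS163 at -3.5 ± 1.01 and in M22 at -3.42 ± 1.07, where its paralogue SSF2 averaged -1.75 ± 1.02 and -1.56 ± 0.34. SSF1 and SSF2 are close copies, and how far their spots read each other was not tested.

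Exosome subunits also had medians closer to 0 than those of the other roles apart from UtpC, at -0.66 in msn2D, -0.75 in hap1D, -0.75 in YPS163 MATa, -0.90 in YPS163, -1.03 in M22 and -0.99 in DBY8268. RRP45, a ring subunit, lay at -0.28, -0.36 and -0.12 in msn2D, where it was not called (adjusted p = 0.14), and at -0.72, -0.60 and -0.50 in hap1D. RRP46, also of the ring, had the highest mean of all members in hap1D, at -0.34 ± 0.16. RRP6, the nuclear exonuclease attached to the ring, averaged -1.17 ± 0.18 in msn2D, -1.32 ± 0.10 in hap1D (n = 3 arrays each) and -1.62 ± 0.04 in YPS163 MATa (n = 2), the lowest of the exosome members in each of these strains.

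**Figure D2:**
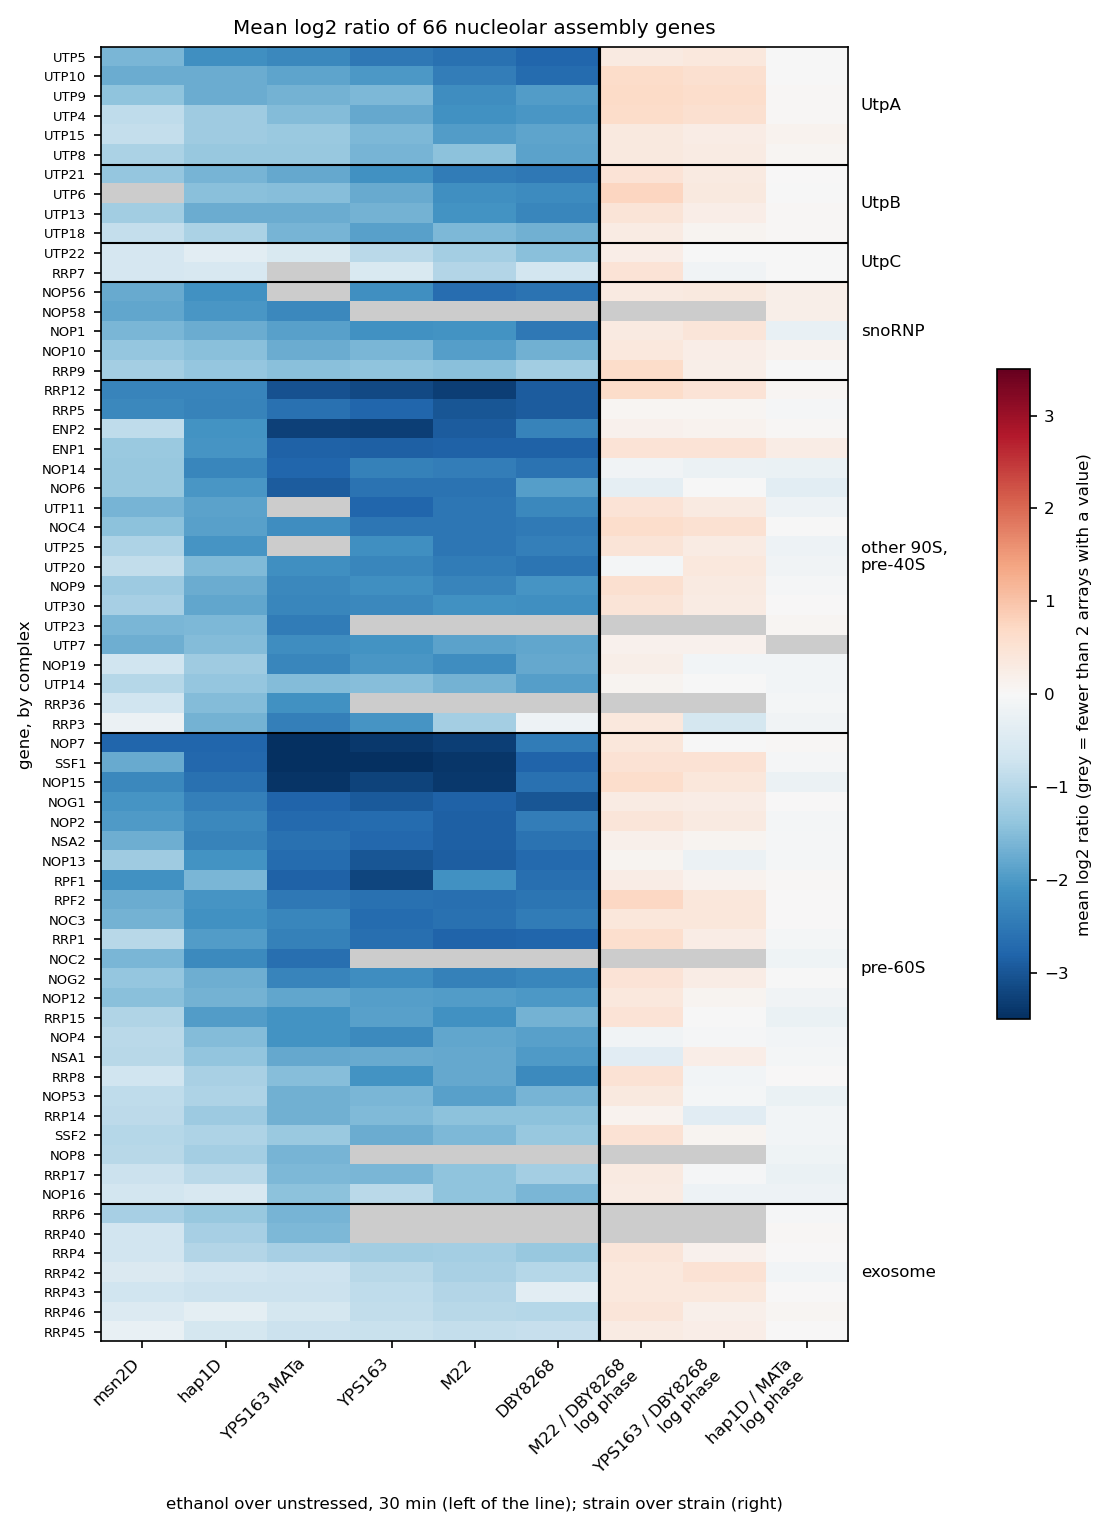
Rows are the 66 genes grouped by complex, and colour is the mean log2 ratio of a group of arrays: 6 columns of ethanol over unstressed at 30 min to the left of the line, and 3 columns of strain over strain in log phase to the right, with grey for fewer than 2 values. Blue is lower, and the msn2D column is paler than the YPS163 MATa column for 90S and pre-60S genes. In the ethanol columns UtpC and exosome rows are paler than the other roles by their medians, though not in every row.

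Most assembly genes named outside the rule fell as well, and exosome genes did so less often. Of all rows tested, 22.4% fell in msn2D and 31% in DBY8268. In msn2D and in DBY8268, 33 of 40 and 34 of 34 other 90S and pre-40S factors fell, 35 of 39 and 37 of 37 other pre-60S factors, 16 of 17 and 17 of 17 nucleolar RNA helicases, and 6 of 7 and 5 of 5 tested subunits of RNA polymerase I, which makes the rRNA precursor. Of the other exosome subunits and cofactors, 2 of 10 fell and 1 rose in msn2D, with a median of -0.24, and 5 of 9 fell in DBY8268, with a median of -0.77. The helicase gene DBP2 stood at -2.50 in msn2D and at -3.02 in DBY8268. Of the cytosolic ribosomal protein genes, 131 of 136 fell in msn2D, with a median of -1.23, and 128 of 128 in DBY8268, with a median of -1.79.

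The difference between the msn2D and YPS163 MATa responses asks how the ethanol response depends on Msn2, an activator of stress genes. The level in msn2D cells without ethanol was not analysed here, so only responses are compared. A minority of the assembly genes differed in the test: 14 of 61 members were higher in msn2D than in YPS163 MATa and 0 were lower, where 4.13% of all rows tested were higher and 4.08% lower. The estimate was positive for 60 of 61 members, with a median of 0.75 against 0.06 over all rows, and 40 passed an unadjusted p under 0.05. Of the 14, 7 were other 90S and pre-40S factors (of 16 tested, median difference 1.2), 6 were pre-60S factors (of 24, median 0.80) and 1 was an exosome subunit (of 7, median 0.45). No member of UtpA (6 tested, median 0.36), UtpB (3, median 0.54), UtpC (1 tested) or the small nucleolar ribonucleoproteins (4, median 0.34) was called. NOP56, RRP7, UTP11, UTP25 and UTP6 had too few values to be tested.

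ENP2, a WD-repeat protein of the 90S particle, lay at -0.89, -0.95 and -0.85 in msn2D, against -4.07 and -2.47 in YPS163 MATa. The msn2D values lay close together and far above both YPS163 MATa values, and the difference was 2.37 ± 0.46 (SE, adjusted p = 0.00343). ENP1, which stays with the pre-40S particle into the cytoplasm, lay at -1.20, -1.33 and -1.36 in msn2D, against -3.95 and -1.73 in YPS163 MATa, a difference of 1.54 ± 0.41 (adjusted p = 0.0234). Here the YPS163 MATa arrays were farther from each other than array 2 was from msn2D. NOP19, a 90S factor, lay at -0.60, -0.66 and -0.86 in msn2D, against -2.42 and -2.13 in YPS163 MATa, a difference of 1.57 ± 0.37 (adjusted p = 0.0119). NOP9, an RNA-binding protein of the pre-40S branch, lay at -1.13, -1.39 and -1.33 in msn2D, against -2.32 and -2.21 in YPS163 MATa, a difference of 0.98 ± 0.19 (adjusted p = 0.00343). For NOP19 and NOP9 the groups did not overlap on these arrays.

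Among pre-60S genes, SSF1 lay at -1.60, -1.81 and -1.89 in msn2D, against -4.07 and -2.94 in YPS163 MATa, a difference of 1.74 ± 0.51 (adjusted p = 0.0406). NOC2, which escorts early pre-60S particles, lay at -1.53, -1.67 and -1.62 in msn2D, against -2.86 and -2.40 in YPS163 MATa, a difference of 1.02 ± 0.18 (adjusted p = 0.009). For SSF1 and NOC2 all msn2D values stood above both YPS163 MATa values. The other called members were NOP14 at 1.46, NOP13 at 1.43, RRP1 at 1.39, UTP20 at 1.27, NOG2 at 0.96, RRP40 at 0.93, NOP2 at 0.73 and NOC4 at 0.72, with adjusted p between 0.0234 and 0.0443. NOP14 and NOC4 form a pair in the 90S particle, NOG2 is a GTPase and NOP2 an rRNA methyltransferase of the pre-60S particle. Across members, each msn2D array stood above each YPS163 MATa array for 47 of 61 (77%), against 30.4% of all rows. This count leaves out YPS163 MATa array 3. When moved by 1 position, that array had a member median of -1.515, against -2.34 and -1.71 on arrays 1 and 2.

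Some members had differences near 0. For UTP22 the difference was -0.05 (95% confidence interval -0.44 to 0.35), for RRP43 0.04 (-0.39 to 0.47) and for UTP10 0.13 (-0.40 to 0.66). RRP3 at 2.18 and NOP6 at 1.59 were among the largest estimates and missed the threshold (adjusted p = 0.0724 and 0.0591), as did NOG1 at 0.75 (adjusted p = 0.0501). A missed threshold does not show that the responses were equal.

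**Figure D3:**
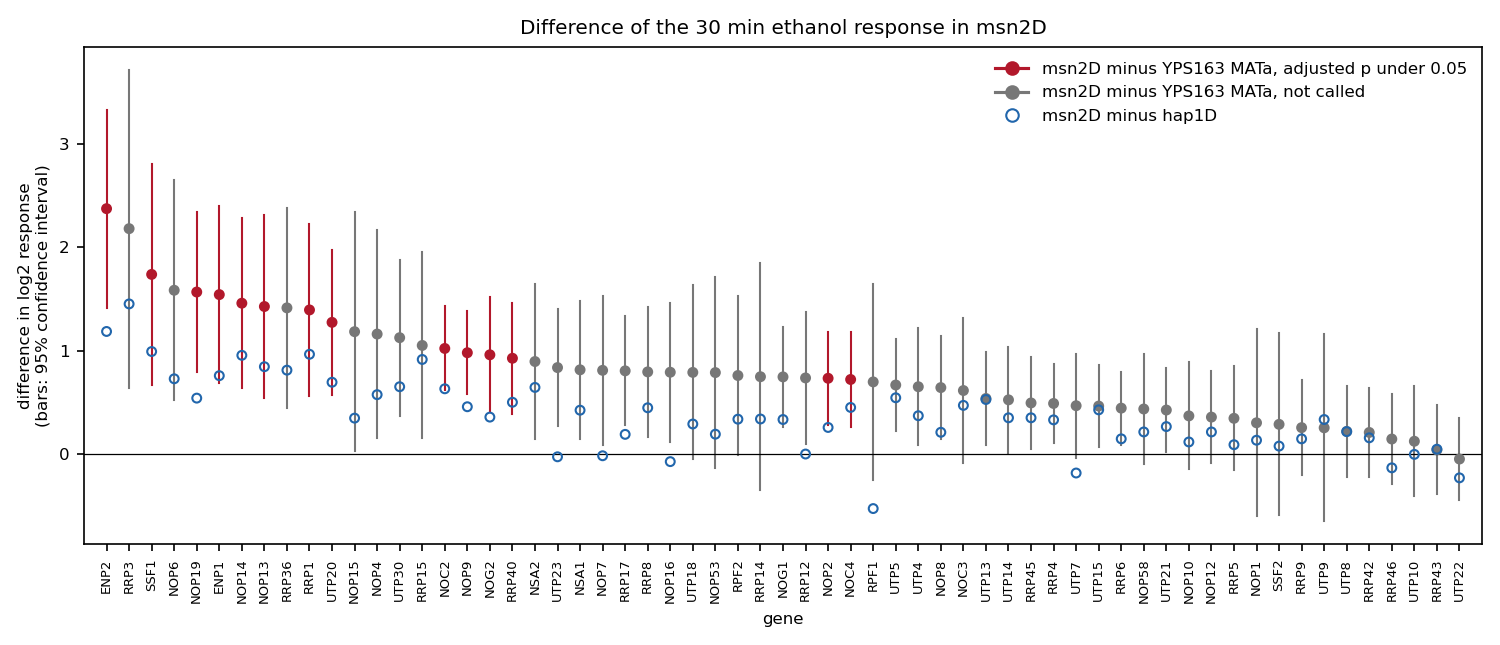
The vertical axis is the difference of the 30 min ethanol response in log2 units for 61 genes, ordered by msn2D minus YPS163 MATa (filled points, with 95% confidence intervals, red where called), and open circles give msn2D minus hap1D. The filled points are above 0 for 60 of 61 genes, and most of the open circles lie closer to 0.

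The count of 14 depended on single arrays. Without array 1 of YPS163 MATa it was 0 and without array 2 it was 20, and without msn2D array 1, 2 or 3 it was 4, 6 and 6. With array 3 of YPS163 MATa moved by 1 position it was 6, of which 5 were among the 14: ENP2, NOC2, NOP9, RRP1 and UTP20, joined by NOG1. NOP9 had no value on the moved array, so its estimate was unchanged and its call was not tried by it. On that array, ENP2 lay at -1.39, ENP1 at -0.51, NOP19 at -0.73, SSF1 at -1.99 and NOC2 at -2.18, so that the ENP1 value stood above its msn2D values and the NOP19 value among them. With it, the NOP19 difference was 1.05 (adjusted p = 0.11) and the ENP1 difference 0.77 (adjusted p = 0.37). The whole response was narrower in msn2D: the median absolute deviation over all rows was 0.41, 0.44 and 0.44 on msn2D arrays, against 0.60 and 0.53 on YPS163 MATa arrays, and divided by it the members' median was -2.46, -3.12 and -2.67 in msn2D, against -3.90 and -3.23 in YPS163 MATa. With every array scaled to one such deviation, 1 member was called and the median difference was 0.29. What part the width of the response has in the 14 calls was not tested.

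Set against hap1D, with 3 arrays on each side, the msn2D response gave 2 higher members of 65 and 0 lower, where 5.3% of all rows were higher and 6.02% lower. This comparison was added after the data had been seen. UTP25, a 90S factor, lay at -0.99, -1.37 and -0.88 in msn2D, against -2.53, -1.76 and -1.87 in hap1D, a difference of 0.97 ± 0.29 (adjusted p = 0.034). For NOC2 the hap1D values were -2.44, -2.18 and -2.10, all below its msn2D values, and the difference was 0.63 ± 0.16 (adjusted p = 0.0336). The median difference over members was 0.34, 56 of 65 estimates were positive and 16 passed an unadjusted p under 0.05. Each msn2D array stood above each hap1D array for 18 of 65 members (27.7%), against 23% of all rows. ENP2 differed by 1.19 ± 0.41 and was not called (adjusted p = 0.0678), and NOP7 by -0.01 (95% confidence interval -0.65 to 0.63). The count of 2 became 0 without msn2D array 1 or 3 or hap1D array 1, and 1 without msn2D array 2 or hap1D array 2.

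The same comparisons were made for the other lists. Of all rows tested, 4.13% were higher and 4.08% lower in msn2D minus YPS163 MATa. In msn2D minus hap1D 5.3% were higher and 6.02% lower. In msn2D minus YPS163 MATa, 9 of 17 nucleolar helicase genes were higher, with DHR2 at 2.14, DRS1 at 1.70 and DBP3 at 1.38, as were 11 of 36 other pre-60S factors, with SDA1 at 2.25, and 7 of 38 other 90S and pre-40S factors, with FAF1 at 2.10. Of 6 tested RNA polymerase I subunits 0 were called (median 0.74, 4 at an unadjusted p under 0.05), and of 10 other exosome subunits and cofactors 0 were called (median 0.26, 1 at an unadjusted p under 0.05). Of 130 ribosomal protein genes 1 was called, and their median was -0.07. In msn2D minus hap1D, 3 of 16 helicase genes, 4 of 39 other pre-60S factors and 3 of 40 other 90S and pre-40S factors were higher, and 1 of 136 ribosomal protein genes, with a median of -0.07. Of 10 other exosome genes 0 were called in limma, with 2 at an unadjusted p under 0.05.

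TOD6 encodes a Myb-type repressor that binds the PAC element, a promoter motif common in these genes. It lay at -0.91, -1.15 and -1.62 in msn2D, at -3.54, -2.47 and -3.11 in hap1D and at -4.66 and -3.07 in YPS163 MATa, with -3.27 on YPS163 MATa array 3 when moved. All msn2D values were above those of both other strains, and the difference was 2.64 ± 0.43 against YPS163 MATa (adjusted p = 0.000693) and 1.81 ± 0.39 against hap1D (adjusted p = 0.00461). RAP1, an activator of ribosomal protein genes, lay at -1.0, -1.16 and -0.52 in msn2D, against -2.77 and -1.96 in YPS163 MATa, a difference of 1.47 ± 0.33 (adjusted p = 0.00892). On YPS163 MATa array 3 when moved it lay at -1.04, among the msn2D values. Of the regulators listed beside these 2, which also include HAP1 and MSN4, the other 9 tested were not called in that comparison.

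hap1D and YPS163 MATa were compared in log phase and in the response, which asks what Hap1, a heme-responsive transcription factor, contributes. In log phase 0 of 65 members were called in limma, 0 passed an unadjusted p under 0.05 and the median was -0.02, where 2.94% of all rows were called. With scaled arrays 11 members were called, but that scaling enlarges these ratios. The median absolute deviations were 0.13, 0.15 and 0.18 on these log-phase arrays, against 0.59, 0.5 and 0.51 on hap1D ethanol arrays. What part this has in the 11 calls was not tested. In the response, 0 of 62 members were called, where 0.0926% of all rows were, and 12 passed an unadjusted p under 0.05. Still, 60 of 62 estimates were positive, with a median of 0.40, and they rest on the same 2 YPS163 MATa arrays as the msn2D comparison. Same-numbered ethanol arrays of hap1D and YPS163 MATa deviated together (correlations of 0.665 and 0.543), which the main fit did not use. With 2 YPS163 MATa arrays these values are not independent of each other. The hap1D array with the highest member median, array 3 at -1.39, has no same-numbered YPS163 MATa array in the fit. RPF1, a pre-60S factor, gave the largest estimate at 1.22 ± 0.41 (adjusted p = 0.438), from -2.40, -1.72 and -0.70 in hap1D, against -3.43 and -2.23 in YPS163 MATa. The hap1D arrays overlapped with those of YPS163 MATa. For ENP2 the estimate was 1.19 ± 0.46 in hap1D minus YPS163 MATa, beside 2.37 ± 0.46 in msn2D minus YPS163 MATa. For the level in ethanol, 0 of 61 members were called and 7 passed an unadjusted p under 0.05, where 0.243% of all rows were called. Without YPS163 MATa ethanol array 2, 1 member was called in the response and 1 in the level.

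In log phase without ethanol, a group of assembly genes was higher in M22 than in DBY8268. In M22 19 of 59 members were higher and 0 lower, where 12.3% of all rows tested were higher and 17.7% lower, and the estimate was positive for 54, with a median of 0.38. The calls included 3 of 6 UtpA, 3 of 4 UtpB, 1 of 4 small nucleolar ribonucleoprotein, 3 of 16 other 90S, 5 of 22 pre-60S and 4 of 5 exosome genes. UTP6, a UtpB subunit, lay at 0.62, 0.85 and 0.79 in M22 over DBY8268, a mean of 0.75 ± 0.14 (SE, adjusted p = 0.000344) or 1.69-fold. RPF2, which brings the 5S ribonucleoprotein to the pre-60S particle, lay at 0.71, 0.82 and 0.65, and RRP9 at 0.40, 0.75 and 0.77. All arrays were above 0 for these genes. UTP4 and UTP10 of UtpA stood at 0.64 and 0.63, RRP12 at 0.63, NOC4 at 0.62, NOP9 at 0.56, the rRNA methyltransferase gene RRP8 at 0.51 and NOG2 at 0.49, with adjusted p between 0.00128 and 0.0477. Without M22 log-phase array 1, 2 or 3 the count of 19 became 6, 7 and 10, and with arrays scaled to one median absolute deviation it became 41. In a fit of these arrays alone it was 40.

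In YPS163 5 of 59 members were higher than in DBY8268 and 0 lower, where 8.62% of all rows were higher and 14.3% lower, so that the share of higher members was close to the background. UTP4 lay at 0.85, 0.39 and 0.46, NOC4 at 0.70, 0.45 and 0.47 and UTP10 at 0.67, 0.32 and 0.67, with means of 0.57, 0.54 and 0.55. The exosome genes RRP42 and RRP43 had means of 0.50 and 0.37. Estimates were positive for 43 of 59 members, with a median of 0.23. Without YPS163 log-phase array 1 or 3 the count of 5 became 1, and 0 when only the arrays of this comparison were fitted. With scaled arrays, where log-phase ratios are enlarged, it became 19. Of the ribosomal protein genes, 0 of 130 were higher and 2 lower in M22 (median 0.26). In YPS163 10 of 130 (7.69%) were higher, against 8.62% of all rows (median 0.47). Their medians on the YPS163 log-phase arrays 1, 2 and 3 were 0.48, -0.06 and 1.04, so these arrays disagreed. DOT6, the paralogue of TOD6 with the same kind of repressor function, was lower in M22 (log2 estimate -1.5 ± 0.18, SE, adjusted p = 1.72e-06) and in YPS163 (log2 estimate -1.35 ± 0.18, SE, adjusted p = 9.17e-06). SFP1, an activator of ribosome genes, was higher in M22 at 0.53 and in YPS163 at 0.60. In the whole list of regulators, 1 of 12 tested was called higher and 3 lower in M22. In YPS163 1 of 13 was called higher and 2 lower. HAP1, also in the list, lay at -1.04, -1.31 and -1.61 in M22 and at -0.97, -1.41 and -0.92 in YPS163. Both log-phase comparisons use DBY8268 as the other channel, but on separate arrays.

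**Figure D4:**
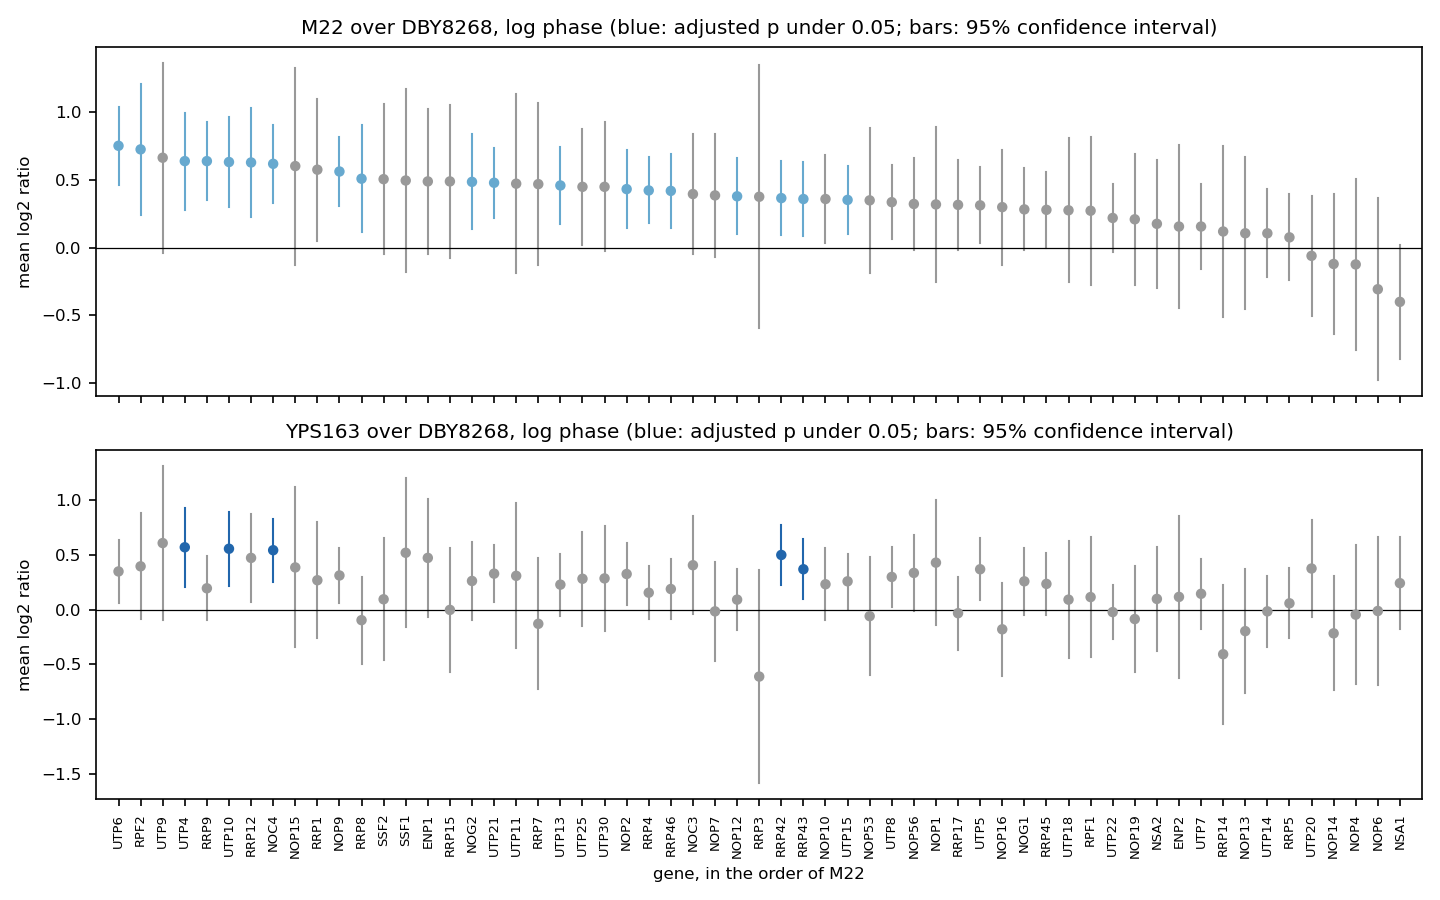
Mean log2 ratios in log phase of M22 over DBY8268 (top) and YPS163 over DBY8268 (bottom) for 59 genes in the order of M22, with 95% confidence intervals and blue for called genes. In M22 54 points lie above 0 and 19 are called, and in YPS163 43 lie above 0 and 5 are called.

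Few members differed between strains in the depth of the ethanol response. In M22 minus DBY8268 1 of 59 members was lower and 0 were higher, where 2.79% of all rows were lower and 9.35% higher, with a median of -0.06. It was RRP43, a ring subunit of the exosome, at -0.74, -1.16 and -1.19 in M22, against -0.10, -0.59 and -0.43 in DBY8268. The groups did not overlap, and the difference was -0.66 ± 0.18 (adjusted p = 0.0222). In YPS163 minus DBY8268 2 of 59 were higher and 1 lower, where 10.4% of all rows were higher and 5.51% lower: UTP10 at 0.71 ± 0.23 (adjusted p = 0.0395), UTP13 of UtpB at 0.63 ± 0.19 (adjusted p = 0.0309) and NOP7 at -0.93 ± 0.31 (adjusted p = 0.0459). UTP13 lay at -1.40, -1.70 and -1.89 in YPS163, against -2.47, -2.48 and -1.92 in DBY8268, and NOP7 at -2.92, -3.18 and -4.03 in YPS163, against -2.35, -2.67 and -2.33 in DBY8268. The groups of neither gene overlapped, although YPS163 array 3 and DBY8268 array 3 of UTP13 were close.

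Same-numbered arrays of these 3 strains deviated together, and in a fit of their ethanol arrays with the number as a block RRP43 kept its call in M22 minus DBY8268 (adjusted p = 0.0225). In YPS163 minus DBY8268 that fit called RRP43 at -0.52 (adjusted p = 0.0352), NOP16 at 0.65 (adjusted p = 0.0213) and UTP10 (adjusted p = 0.0387), while UTP13 and NOP7 missed the threshold (adjusted p = 0.0903 and 0.0742). Without a block, the fit of these arrays alone called 0 members in either comparison. Leaving out 1 array in the fit of all groups gave 0 calls in M22 minus DBY8268 without M22 array 2 or 3 or DBY8268 array 1, and 3 without M22 array 1. In YPS163 minus DBY8268 it gave 7 without YPS163 array 1, 0 without YPS163 array 2 or DBY8268 array 2, and 1 without YPS163 array 3 or DBY8268 array 1. Between YPS163 and M22 0 of 59 members were called, with 3 at an unadjusted p under 0.05, where 5.96% of all rows were called. Between YPS163 MATa and YPS163 0 of 55 were called, with 1 at an unadjusted p under 0.05, where 0.74% of all rows were called.

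The level in ethanol, the sum of the log-phase ratio and the difference in response, was higher in M22 than in DBY8268 for 3 of 59 members, where 7.28% of all rows were higher and 5.95% lower: UTP10 at 0.92, UTP6 at 0.82 and UTP8 at 0.80. In YPS163 it was higher for 4 of 59, where 7.79% of all rows were higher and 7.37% lower, with UTP10 at 1.26 ± 0.28 (adjusted p = 0.00382, 2.40-fold), UTP13 at 0.85, UTP6 at 0.80 and UTP21 at 0.70. The higher shares of members were below those of all rows. With scaled arrays, where log-phase ratios are enlarged, 18 and 8 members were called in M22 and YPS163. In fits of the arrays compared alone the counts were 1 and 0. RRP3 was lower in YPS163 at -2.50 ± 0.81 (adjusted p = 0.0415), with an SD over 1 in both strains' responses. The M22 count became 0 without M22 log-phase array 2 or 3, and 1 without M22 ethanol array 1, while the YPS163 count of all calls, 5, became 2 without YPS163 log-phase array 3, YPS163 ethanol array 2 or DBY8268 ethanol array 2. It became 3 without YPS163 log-phase array 1 or 2 or DBY8268 ethanol array 1. For comparison, 41 of 126 ribosomal protein genes were higher in ethanol in YPS163. That level includes their log-phase ratio, whose array medians of 0.48, -0.06 and 1.04 disagreed.

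The time course had 1 array per strain and time, so it is described without a test, over the 56 members present on all 12 arrays, with array 1 of each strain at 30 min. At 15, 30, 45 and 60 min the median was -1.74, -1.77, -2.05 and -1.80 in YPS163, -1.57, -1.88, -1.89 and -1.73 in M22, and -1.07, -2.03, -1.74 and -2.14 in DBY8268. At 15 min 49 of 56 members were lower in YPS163 than in DBY8268, and 49 of 56 in M22, with median differences of -0.65 and -0.50. At 30 min 18 of 56 were lower in YPS163 and 15 of 56 in M22, with median differences of 0.21 and 0.17, and at 45 min 45 of 56 and 34 of 56, with median differences of -0.28 and -0.10. At 60 min 12 of 56 were lower in YPS163 and 4 of 56 in M22, with median differences of 0.28 and 0.30. The sign of the median thus alternated over the 4 times in both strains, and both differences at a time share its DBY8268 array. Of the 56, 23 were at their lowest at 15 min in YPS163, 13 in M22 and 2 in DBY8268, whereas 10, 11 and 34 were at their lowest at 60 min.

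Role medians at 15 min are given as a description. At 15 min in YPS163 and in DBY8268 the median was -2.19 and -1.79 for UtpA, -1.90 and -0.97 for other 90S and pre-40S members and -1.88 and -1.01 for pre-60S members. It was -1.88 and -1.6 for UtpB, -1.07 and -0.92 for UtpC, -1.37 and -1.34 for small nucleolar ribonucleoprotein genes and -0.57 and -0.59 for exosome genes. UTP15 of UtpA lay at -3.41, -1.87, -2.14 and -1.69 over the 4 times in YPS163, at -2.84, -2.15, -1.98 and -1.67 in M22, and at -2.08, -2.02, -1.83 and -2.13 in DBY8268. It was deepest at the first time in YPS163 and M22 and nearly level in DBY8268. NOP7 lay at -1.0, -2.92, -3.39 and -2.79 in YPS163, at -0.75, -2.42, -3.07 and -2.8 in M22, and at -0.39, -2.35, -2.91 and -3.22 in DBY8268, and so went down after 15 min in all 3 strains. RRP1, a pre-60S factor, lay at -0.86, -2.09, -2.15 and -2.23 in YPS163, at -0.94, -2.10, -2.23 and -2.64 in M22, and at -0.89, -2.42, -2.73 and -3.16 in DBY8268, lower at each later time in every strain.

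Of the 56 members, 26 in YPS163, 36 in M22 and 51 in DBY8268 were lower at 60 than at 15 min, and 24 were lower in all 3 strains. These 24 held 4 of 5 exosome genes, 3 of 4 small nucleolar ribonucleoprotein genes, 9 of 21 pre-60S genes and 7 of 16 other 90S genes, but 1 of 5 UtpA and 0 of 3 UtpB genes. Only UTP4, UTP22, NOG2 and RRP9 were higher at 60 than at 15 min in all 3 strains. RRP9 lay at -2.54, -1.19, -1.21 and -1.0 in YPS163, at -2.05, -1.17, -1.20 and -1.29 in M22, and at -1.52, -1.32, -1.10 and -1.30 in DBY8268, with its lowest value at 15 min in each.

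**Figure D5:**
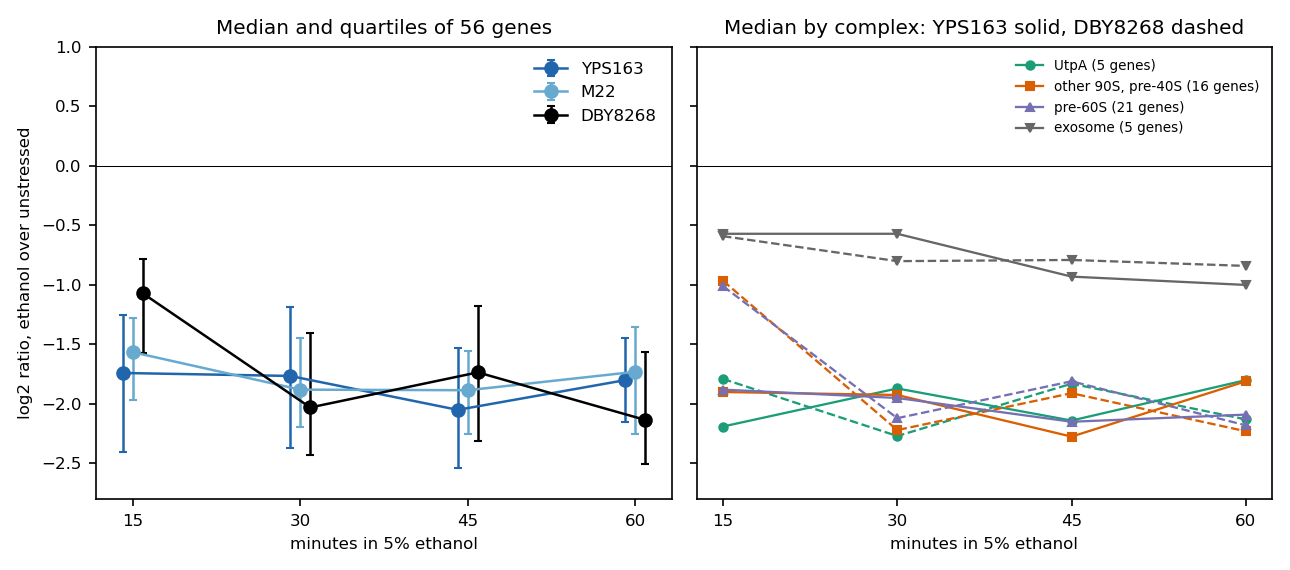
Log2 ratios of ethanol over unstressed against minutes in 5% ethanol, 1 array per point. The left panel gives the median and quartiles of 56 genes in YPS163, M22 and DBY8268, where the DBY8268 median at 15 min, -1.07, is the highest of the 12, and the right panel gives the medians by complex, with YPS163 solid and DBY8268 dashed, where exosome genes stay at -1.0 or above.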

How the data were processed

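Hot-phenol RNA was made into amino-allyl cDNA and coupled to Oyster dyes, with the dyes exchanged on array 2 of each replicated group, per the labels' protocols. The authors deposited a table of open reading frames by arrays, whose values were taken to be log2 ratios. The sources used here state no unit, log base, normalisation or spot filter for it, and precision is limited by how many arrays a group has. Groups of 3 are biological triplicates and time-course arrays are unreplicated, per the labels of the series. The hap1D log-phase ratios were turned to hap1D over YPS163 MATa.

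In limma 3.58.1 under R 4.3.3, lmFit and eBayes fitted 1 mean per group to 26 arrays. A row was tested with a value on at least 2 arrays of each group used, and p-values were adjusted by Benjamini-Hochberg over all rows tested, in 18 planned comparisons and 1 added. The fit was tested on simulated data whose noise was drawn separately for each array, so deviations shared between arrays were not covered. Same-numbered ethanol arrays of YPS163, M22 and DBY8268 deviated together (correlations of 0.220 to 0.648 across rows). Their numbers therefore served as a block in a further fit. Since array 2 of each group has its dyes exchanged, the number also goes with dye orientation. Whether a number stands for paired samples, a shared batch or a dye effect was not tested. Ethanol arrays of hap1D and YPS163 MATa gave correlations of 0.665 and 0.543, but had only 2 pairs. These values are not independent, since the deviations of 2 arrays from their mean mirror each other. No other combination of groups reached 0.220 in every pair. Members and lists were chosen with earlier results of these data known. Genes were named by rank in each response and role, by every call up to 10 in each direction, and from a short list always given. Other named examples were chosen after their values were seen. Promoter sequences were not used here.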

Additional observations from a re-analysis of the deposited data

Results flagged for a closer look

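These results were singled out because the ethanol responses of a pair of strains differed in the limma test of the difference itself. In msn2D minus YPS163 MATa 14 of 61 members were called, all higher, where 4.13% of all rows were higher. ENP2 at 2.37, SSF1 at 1.74, NOP19 at 1.57, ENP1 at 1.54, NOP14 at 1.46, NOP13 at 1.43, RRP1 at 1.39, UTP20 at 1.27, NOC2 at 1.02 and NOP9 at 0.982 were the largest on the log2 scale. In msn2D minus hap1D 2 of 65 members were called, UTP25 at 0.973 and NOC2 at 0.633, where 5.3% of all rows were higher. In YPS163 minus DBY8268 3 of 59 members were called, UTP10 at 0.707, UTP13 at 0.627 and NOP7 at -0.927. There 10.4% of all rows were higher and 5.51% lower. In M22 minus DBY8268 1 of 59 members was called, RRP43 at -0.657, where 2.79% of all rows were lower. Each of the counts after the first became 0 when a certain array was left out. The first count was no steadier, and it moved most with the YPS163 MATa arrays, as given above. Groups of 3 arrays are too small for a test of single outlying arrays.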

How the results depend on the processing

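Of 240 recomputed counts of called members, 181 stayed within 1.5 times the reported count. Leaving out 1 array gave 53 to 57 calls in the msn2D response, 61 to 62 in hap1D, 56 to 63 in YPS163 MATa, 56 to 57 in YPS163, 55 to 57 in M22 and 56 to 58 in DBY8268. It gave 6 to 10 calls for M22 over DBY8268 in log phase (10 without array 3), 1 to 5 for YPS163 over DBY8268 in log phase (1 without array 1 or 3), 0 to 3 for M22 minus DBY8268, 0 to 7 for YPS163 minus DBY8268 (7 without YPS163 array 1, 0 without array 2 of either strain), 0 to 1 for hap1D minus YPS163 MATa, 0 to 20 for msn2D minus YPS163 MATa and 0 to 2 for msn2D minus hap1D. For the level in ethanol it gave 0 to 4 in M22 (0 without log-phase array 2 or 3), 2 to 5 in YPS163 and 0 to 1 in hap1D, and for the remaining comparisons 0.

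Scaling every array to one median absolute deviation gave 41 calls for M22 and 19 for YPS163 over DBY8268 in log phase, 11 for hap1D over YPS163 MATa in log phase, 18 and 8 for the levels of M22 and YPS163 in ethanol, 1 for msn2D minus YPS163 MATa, and 0 for M22 minus DBY8268, YPS163 minus DBY8268 and msn2D minus hap1D. Fitting only the arrays compared gave 40 and 0 calls for M22 and YPS163 over DBY8268 in log phase, 1 and 0 for their levels in ethanol, and 0 for both differences from DBY8268, as did the ethanol arrays of the 3 strains alone without a block. The scaling to one deviation enlarges log-phase ratios, since those arrays had smaller deviations than the ethanol arrays. Centring each array gave 1 call for YPS163 minus DBY8268. Keeping only rows complete on all arrays used, which leaves fewer members, gave 42 in the hap1D and 40 in the msn2D response, 5 for YPS163 minus DBY8268, 3 for its level in ethanol and 0 for msn2D minus hap1D. Array 3 of YPS163 MATa gave 1 call for msn2D minus YPS163 MATa as deposited and 6 when moved. As deposited it also turned RRP42 in the YPS163 MATa response to 0.31, the single reversal among 1391 recomputed values of named members, of which 209 lost their call. With a replicate block over all arrays, msn2D minus YPS163 MATa again had 14 calls, 11 of them shared. The cause of these changes was not tested.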
